A study of Sus scrofa with 20 samples.

Results

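Toll-like receptors are the germline-encoded sensors with which epithelial and immune cells of the gut detect conserved parts of microbes. TLR4 recognises the lipopolysaccharide of Gram-negative bacteria together with LY96, also called MD-2, which carries the lipid binding pocket, and CD14, which hands the lipopolysaccharide over. TLR2 binds bacterial lipopeptides and TLR5 binds flagellin at the cell surface, TLR3, TLR7, TLR8 and TLR9 read nucleic acids in endosomes, and MYD88 is the adaptor through which all of these receptors except TLR3 signal to NF-kappa B. In the ileum these genes sit at the border between the mucosa and a dense microbial community, where most of the tissue is enterocytes and the macrophages and dendritic cells lie beneath them.

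The genes described here are LY96, CD14, MYD88, TLR2, TLR3, TLR4, TLR5, TLR7, TLR8 and TLR9, chosen by gene symbol with every probeset of the array that carries a value. A probeset is the set of array probes summarised into 1 value for a transcript. These 10 genes had 22 probesets, of 25092 probesets with values and 10567 named genes in all. LY96, CD14, TLR2, TLR8 and TLR9 had 1 probeset each, MYD88, TLR5 and TLR7 had 2, TLR3 had 5 and TLR4 had 6, and 10 further rows annotated to the same genes held no value. Of the 22 probesets, 19 passed the filter on mean and SD, and 3 of TLR4 (probesets 2, 3 and 4) were left out because their SD was too large in at least 1 group.

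Mucosa was scraped from the ileum of 20 Large White x Landrace pigs, aged about 19 weeks, and hybridised to the snowball array of the porcine transcriptome with 1 array for each animal. Low RFI pigs (n = 10, labelled as of high feed efficiency) ate less than their growth and body composition predicted, and high RFI pigs (n = 10, labelled as of low feed efficiency) ate more, where RFI stands for residual feed intake. All pigs had the same free access to feed and were untreated, and each pen held 1 intact litter, so that the litter and the pen cannot be told apart. Sows 1406, 1410, 1411, 1417 and 1435 each contributed a low RFI male, a low RFI female, a high RFI male and a high RFI female, so that the 20 pigs form 10 pairs of littermates of the same sex. The RFI groups were chosen as the extremes within litter and sex, so they are not a random sample of pigs.

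Array medians lay between 4.98 and 5.07 on the log2 scale, and 2 arrays correlated at 0.948 to 0.974 over all probesets. Enterocyte markers are given as a description of the tissue and do not check its label, since no other tissue was compared. FABP6, the ileal bile acid binding protein, averaged 13.27 ± 0.15 in low RFI and 13.20 ± 0.15 in high RFI pigs (SD, n = 10 each). None of the 5 enterocyte markers tested had p under 0.05 between RFI groups or litters. The values are relative hybridisation levels, so differences are read here between pigs for the same probeset. Where the place of a probeset on the array's scale is given, as for LY96, it is a description only. In such bulk mucosa, fewer cells of a type and less RNA per cell cannot be told apart.

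LY96 (chromosome 4, 61919806 to 61950712 of Sscrofa11.1, the gene's span in RefSeq) was the only member gene to pass the threshold between RFI groups, and it was lower in low RFI pigs. Its log2 values in the 10 low RFI pigs had a lowest of 1.80, a median of 2.17 and a highest of 2.73. In the 10 high RFI pigs they had a lowest of 1.95, a median of 2.51 and a highest of 4.28. The low RFI pigs thus lay in a narrow band, and the high RFI pigs overlapped with them at the bottom but reached far above them at the top. The means were 2.17 ± 0.28 in low RFI and 2.72 ± 0.77 in high RFI pigs (SD, n = 10 each), a log2 fold change of -0.55 with a standard error of 0.22 and a 95% interval of -1.01 to -0.08, or 0.685-fold. With limma and the sow in the model, p was 0.0228 and the Benjamini-Hochberg adjusted p was 0.9998, with LY96 lower in the low RFI pig in 8 of 10 pairs, or in 6 of 10 after renewed quantile normalization. An exact two-sided permutation test that swapped the RFI groups within the 10 pairs gave p = 0.0605.

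This 1 of 19 member probesets (5.26%) stood against a background of 4.03% of all 22136 tested probesets with p under 0.05, so the share of members called was near that of the array as a whole. By direction, the 1 member that was lower in low RFI pigs stood beside a background of 2.59%, and the 0 members that were higher beside 1.44%. No probeset of the array passed after adjustment by limma, while 893 had an unadjusted p under 0.05.

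The difference in LY96 was uneven over the litters. In litter 1411 the low RFI pigs had 1.80 (male) and 1.96 (female), against 4.28 (male) and 3.80 (female) in the high RFI pigs. In litter 1417 they had 2.10 (male) and 2.38 (female), against 2.61 (male) and 2.90 (female). In both litters the low and high RFI pigs did not overlap, but the gap in litter 1411 was much the wider one. In litter 1410 the values were 2.24 (male) and 2.37 (female) in low RFI, against 2.30 (male) and 2.79 (female) in high RFI. In litter 1406 they were 1.96 (male) and 1.95 (female) in low RFI, against 2.16 (male) and 1.95 (female) in high RFI. In litter 1435 the order was turned, with 2.24 (male) and 2.73 (female) in low RFI, against 1.98 (male) and 2.40 (female) in high RFI.

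**Figure D1:**
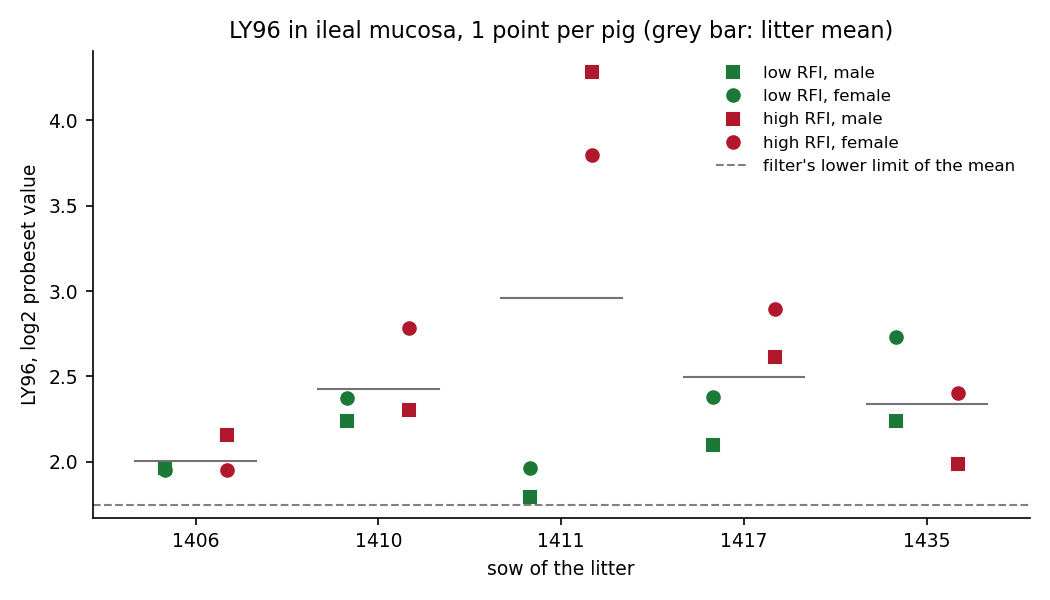
LY96 log2 value (y axis) of each of the 20 pigs by litter (x axis, sow number), with low RFI pigs (green) left of high RFI pigs (red), squares for males, circles for females, a grey bar at each litter mean and a dashed line at the filter's lower limit of the mean (1.75). The 2 high RFI pigs of litter 1411, at 3.80 and 4.28, lie above all other pigs, whose values run from 1.80 to 2.90.

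Averaged over both sexes, low minus high RFI was -0.10 in litter 1406, -0.24 in 1410, -2.16 in 1411, -0.52 in 1417 and 0.29 in 1435. The RFI difference of LY96 thus differed between litters, with p = 4.34e-05 and an adjusted p of 0.296 in limma's F test of RFI by litter, the third smallest p of 22136 probesets. It was 1 of 19 members (5.26%) with p under 0.05 in that test, beside a background of 4.14%, and the lowest p of any other member was 0.0678 (TLR3 probeset 2). No probeset of the array passed after adjustment in that test, where 917 had p under 0.05.

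Without litter 1411 the LY96 difference was -0.14 with p = 0.293 in limma, and the RFI by litter test gave p = 0.173. Without litter 1417 it was -0.55 with p = 0.0546, so the call was lost there too although the size was the same. Leaving out litter 1406, 1410 or 1435 gave -0.66 (p = 0.0229), -0.62 (p = 0.0304) and -0.75 (p = 0.00562), each by limma. Single pigs also mattered: without the low RFI female of litter 1411 the difference was -0.44 (p = 0.0531), without its low RFI male -0.42 (p = 0.0533), without its high RFI female -0.46 (p = 0.0508) and without its high RFI male -0.40 (p = 0.0498).

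**Figure D2:**
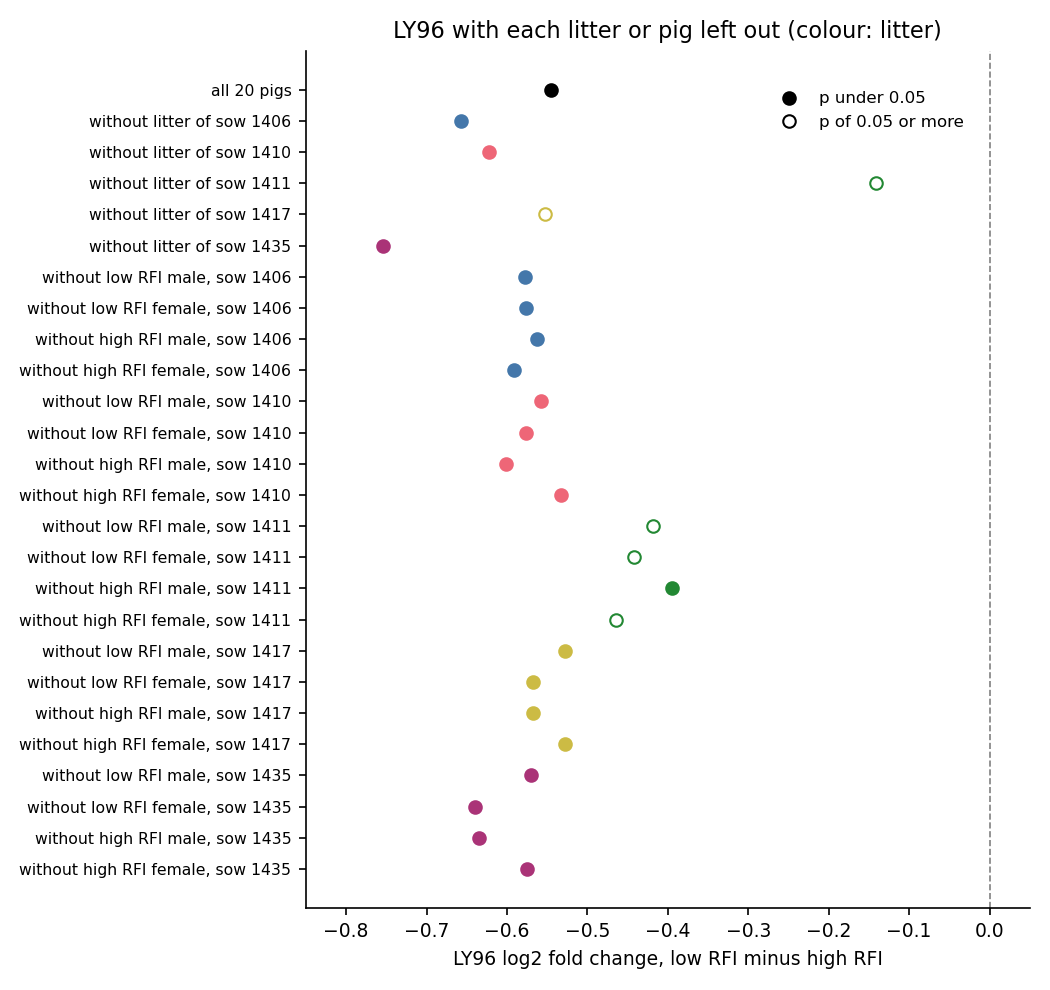
LY96 difference, low minus high RFI on the log2 scale (x axis), with all 20 pigs and without each litter or each pig in turn (rows, coloured by litter), filled points having p under 0.05 in limma. The difference is -0.55 with all pigs and -0.14 without litter 1411, and the open points are those without litter 1411, litter 1417 or 1 of 3 pigs of litter 1411.

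The arrays of the 2 high RFI pigs of litter 1411 had mean correlations to the other arrays of 0.964 and 0.965. For the macrophage and monocyte markers, of which 6 of 15 were tested, the mean level in these pigs was 5.47 (male) and 5.72 (female), within the range of the 10 high RFI pigs (5.15 to 5.99) and of the 10 low RFI pigs (5.17 to 6.06). None of these 6 markers passed the test between RFI groups. Of the dendritic cell markers, of which 4 of 10 were tested, 1 did, the transcription factor BATF3, which was lower in low RFI pigs (log2 fold change -0.20, limma p = 0.0480). For the neutrophil markers, of which 4 of 6 were tested and none passed between RFI groups, the level in the high RFI male of litter 1411, the pig with the highest LY96, was 4.64 and the highest of the high RFI pigs (4.03 to 4.64), and that in the female was 4.38, while low RFI pigs ran from 3.90 to 4.69. That male also had the lowest level of the high RFI pigs for the cytokines and chemokines of the pathway (5.03), for its other receptors (3.98) and for the pathway genes together (5.96). Of the fibroblast markers, all 6 had values but only 3 were tested after the filter. Between RFI groups 1 of these 3 passed, COL1A1, which was higher in low RFI pigs (log2 fold change 0.39, limma p = 0.0166). Of the smooth muscle markers, of which 4 of 6 were tested, 1 passed, ACTA2, which was lower (-0.62, limma p = 0.0254). The median log2 fold change was 0.36 over the fibroblast markers tested and 0.008 over the smooth muscle markers tested. The background was 4.03% of all probesets, and no probeset of the array passed after adjustment. The values of LY96 lay in the lower part of the array's scale, with a mean of 2.44 over 20 arrays where the filter removed probesets under 1.75, and its SD of 0.773 in high RFI pigs was close to the limit of 0.808 for that group. Whether RNA of other cells had a part in the high LY96 values was not tested.

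Over the 9757 other named genes tested, the patterns most like that of LY96 over the 20 arrays were those of UCHL3, a ubiquitin hydrolase (Pearson r 0.73, Spearman rho 0.52), ATP7A, a copper transporter (0.69 and 0.61), GTF2H2, a subunit of the general transcription factor TFIIH (0.66 and 0.36), ACTRT2, an actin-related protein (0.66 and 0.46), and MYH1, a myosin heavy chain (0.66 and 0.72). The most opposite were ART5, an ADP-ribosyltransferase (-0.71 and -0.21), IL2RG, the common gamma chain of interleukin receptors (-0.70 and -0.48), and DHX30, an RNA helicase (-0.69 and -0.53). These are descriptions without a test, chosen as the extremes of many genes over pigs that share litters. Over the 16 arrays without litter 1411, r was 0.29 for UCHL3, 0.18 for GTF2H2, 0.26 for ACTRT2, 0.11 for ART5 and -0.30 for DHX30, whereas it was 0.53 for ATP7A, 0.58 for MYH1 and -0.46 for IL2RG. With the 21 other member probesets, LY96 correlated at -0.30 to 0.42. The closest member was TLR3, with r of 0.25, 0.33, 0.42, 0.18 and 0.26 for probesets 1 to 5, and rho = 0.56 for probeset 3. After the sow and RFI group were taken out, r was 0.46, 0.66, 0.48, 0.28 and 0.35 in the same order. Taking these out leaves the uneven LY96 difference between litters in the values, and no r without litter 1411 is given for TLR3.

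CD14 and TLR4, which act with LY96 on lipopolysaccharide, did not pass the threshold between RFI groups. CD14 (chromosome 2, 142348036 to 142349686) had a lowest of 4.18, a median of 4.64 and a highest of 4.91 in low RFI pigs, against 3.82, 4.68 and 4.96 in high RFI pigs. The groups overlapped almost wholly, with a log2 fold change of 0.04 and a 95% interval of -0.23 to 0.31 (limma p = 0.744). For TLR4 (chromosome 1, 258044610 to 258054641) the log2 fold changes were 0.08 for probeset 1, 0.13 for probeset 5 and -0.14 for probeset 6, with limma p of 0.622, 0.326 and 0.345. The probesets of TLR4 did not follow each other closely: probesets 1 to 5 correlated with each other at 0.20 to 0.67, and probeset 6 with the other 5 at -0.23 to 0.14, over the 20 arrays. The 3 TLR4 probesets left out by the filter had log2 fold changes of -0.13, -0.11 and -0.29 in a fit without the filter, the lowest p among them being 0.328.

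TLR2 (chromosome 8, 75416257 to 75428370), the lipopeptide receptor, had the next largest RFI difference but did not pass the threshold. Its low RFI pigs had a lowest of 4.20, a median of 5.12 and a highest of 6.36, against 4.45, 5.76 and 6.40 in high RFI pigs. The groups overlapped over most of their range, with means of 5.18 ± 0.79 in low RFI and 5.63 ± 0.63 in high RFI pigs (SD, n = 10 each). The log2 fold change was -0.45 with a standard error of 0.28 and an interval of -1.03 to 0.13 (limma p = 0.122), and TLR2 was lower in the low RFI pig in 7 of 10 pairs. Low minus high RFI was -0.72 in litter 1410, -1.40 in 1411 and -0.68 in 1435, but -0.04 in 1417 and 0.59 in 1406. Without litter 1406 the difference was -0.71 with p = 0.0229, and without the high RFI female of that litter alone, the high RFI pig with the lowest value at 4.45, it was -0.61 with p = 0.0258 (limma, unadjusted). Over all single pigs left out in turn, the TLR2 difference ran from -0.61 to -0.31, with limma p up to 0.261. In the other 34 alternatives TLR2 stayed uncalled.

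The remaining members lay close to 0 between RFI groups. TLR5 (chromosome 10, 19387666 to 19410024) had log2 fold changes of 0.04 and -0.03 for its 2 probesets, with intervals of -0.17 to 0.26 and -0.21 to 0.15. TLR3 (chromosome 15, 46966262 to 46977774), the receptor for double-stranded RNA, had values between -0.02 and 0.14 over its 5 probesets, which correlated with each other at 0.67 to 0.92. Only TLR9 and MYD88 probeset 2 went further up, and neither passed the test. TLR9 (chromosome 13, 34353444 to 34370990), which reads unmethylated CpG DNA, averaged 4.16 ± 0.57 in low RFI and 3.95 ± 0.58 in high RFI pigs, with a log2 fold change of 0.21 and an interval of -0.29 to 0.71 (limma p = 0.384). MYD88 (chromosome 13, 22976951 to 22979568) had 0.01 for probeset 1 and 0.26 for probeset 2 (limma p = 0.951 and 0.182). TLR7 had -0.08 and -0.03 for its 2 probesets and TLR8 had 0.13, both receptors of single-stranded RNA.

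Over all 19 member probesets tested, 12 had a positive and 7 a negative log2 fold change, with a median of 0.04 beside -0.01 over all probesets tested. Apart from LY96, the 18 other probesets lay between -0.45 and 0.26, the lowest p was 0.122, and their 95% intervals reached down to -1.03 (TLR2) and up to 0.71 (TLR9). The standard errors ranged widely between probesets, with 0.08 for MYD88 probeset 1 and 0.28 for TLR2, so the size of difference that the 10 pigs per group could show was not the same for each.

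**Figure D3:**
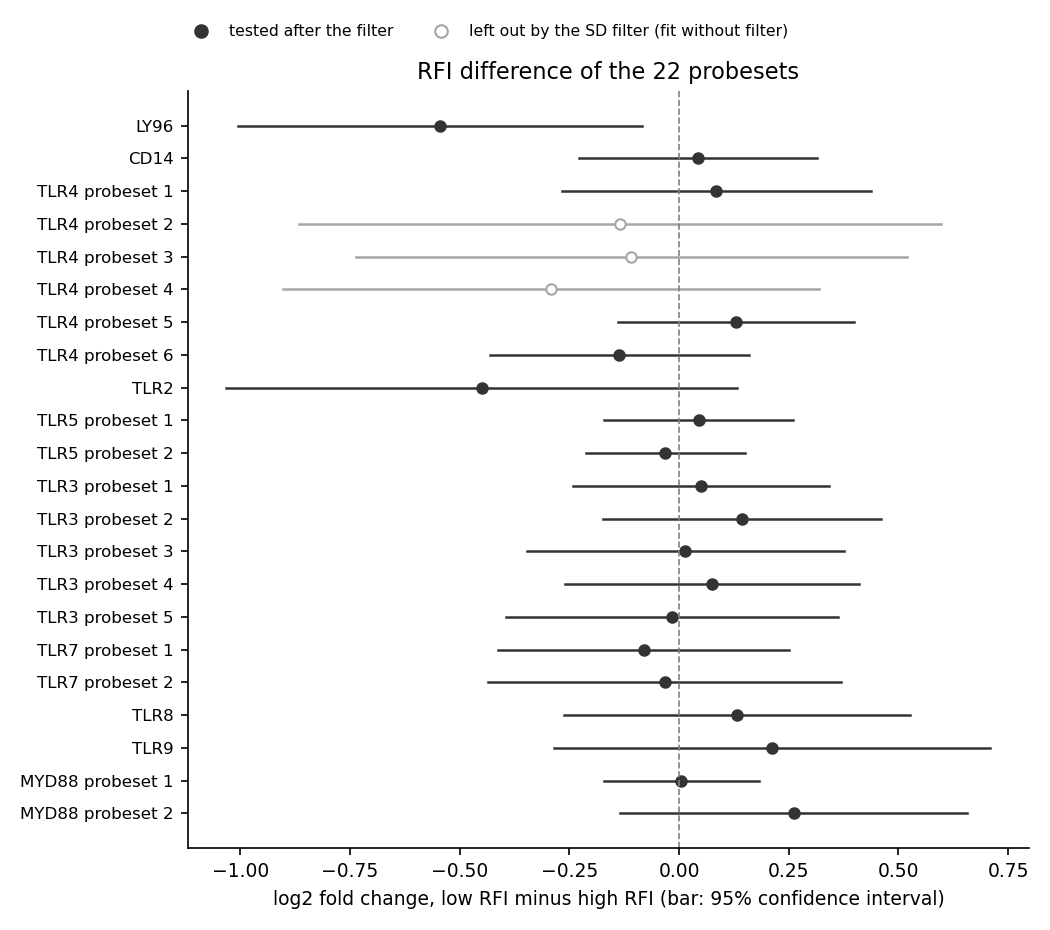
Difference of low minus high RFI on the log2 scale (x axis) with its 95% interval (bars) for the 22 member probesets, the 3 TLR4 probesets left out by the filter drawn as open grey points from a fit without it. LY96 at -0.55 is the only one tested whose interval does not include 0.

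The litters differed more than the RFI groups did. Of the 19 member probesets, 7 (36.8%) had p under 0.05 in limma's F test between the 5 litters, beside a background of 12.9% of all probesets. They belonged to 5 genes: MYD88 (probeset 1), TLR4 (probesets 1 and 5), TLR5 (both probesets), TLR7 (probeset 1) and TLR8. Probesets of 1 gene are annotated to the same gene and were read on the same pigs, so the 7 are not taken as separate observations. Which transcripts each of them reads was not examined. With each gene represented by its tested probeset of highest mean, 3 of 10 genes (30%) had p under 0.05 between litters. The median p of the 19 members was 0.0928, beside 0.369 over all probesets tested. No member passed after adjustment, the lowest adjusted p being 0.212 for TLR7 probeset 1, whereas 21 probesets of the array did (0.0949%). Without litter 1406 the count of members was 3 (MYD88 probeset 1, TLR3 probeset 4 and TLR4 probeset 5). These p-values rest on the spread between the 4 pigs of a litter, and litter and pen cannot be told apart.

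TLR7 and TLR8, TLR4 probeset 1 and MYD88 probeset 1 shared 1 order in part: litter 1417 was the lowest for each. TLR8 had 5.88 ± 0.42 in litter 1406, 5.25 ± 0.50 in 1410, 5.45 ± 0.50 in 1411, 4.73 ± 0.32 in 1417 and 5.06 ± 0.48 in 1435 (SD over the 4 pigs of each litter), with limma's F test at p = 0.0132 and an adjusted p of 0.260. TLR7 probeset 1 had 4.90 ± 0.17, 4.40 ± 0.28, 4.56 ± 0.49, 3.93 ± 0.41 and 4.0 ± 0.42 in the same litters (p = 0.00583, adjusted p 0.212). For both, litter 1406 was highest and all 4 of its pigs exceeded all 4 pigs of litter 1417, while the litters between them overlapped with their neighbours. TLR4 probeset 1 likewise averaged 4.62 ± 0.38 in litter 1406, 4.26 ± 0.34 in 1410, 4.04 ± 0.32 in 1411, 3.58 ± 0.34 in 1417 and 3.74 ± 0.55 in 1435 (p = 0.00722). TLR4 probeset 5 had 4.28 in litter 1406 and 3.60 in 1417 (p = 0.0153), but probeset 6 had p = 0.559 and was highest in 1410 and lowest in 1435. The TLR4 probesets left out by the filter did not share this order. Probeset 2 was highest in 1406 but lowest in 1411, probeset 3 was highest in 1411 and lowest in 1435, and probeset 4 was highest in 1410 and lowest in 1417. MYD88 probeset 1, which moved over a smaller range, averaged 9.13 ± 0.10 in litter 1410, 9.06 ± 0.19 in 1406, 8.92 ± 0.14 in 1411, 8.83 ± 0.18 in 1435 and 8.59 ± 0.16 in 1417 (p = 0.00666), while its probeset 2 had p = 0.274. TLR7 probeset 2 did not pass either (p = 0.509), so for 3 genes the litter difference was seen with some of their probesets and not with others. Without litter 1406 the p was 0.0769 for TLR4 probeset 1, 0.0837 for TLR7 probeset 1 and 0.141 for TLR8, and without litter 1417 it was 0.162 for MYD88 probeset 1, 0.0621 for TLR4 probeset 5 and 0.0943 for TLR8, all by limma and past the threshold no longer.

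TLR5 stood the other way round, with litter 1406 the lowest. Probeset 2 averaged 6.98 ± 0.19 in litter 1406, 7.49 ± 0.22 in 1410, 7.40 ± 0.13 in 1411, 7.51 ± 0.17 in 1417 and 7.36 ± 0.12 in 1435, again over 4 pigs each, with p = 0.00767 and an adjusted p of 0.227 in limma's F test. All 4 pigs of litter 1406 lay at or under 7.20 and all 16 others at or above 7.21, so the groups did not overlap but touched. Probeset 1 had 7.05 in litter 1406 and 7.37 to 7.66 in the others (p = 0.0108), and its 2 probesets correlated at 0.86 over the 20 arrays. Without litter 1406 the litter difference of TLR5 had p = 0.434 and 0.639, so it rested on that litter. Without its low RFI male alone, probeset 2 had p = 0.0506.

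**Figure D4:**
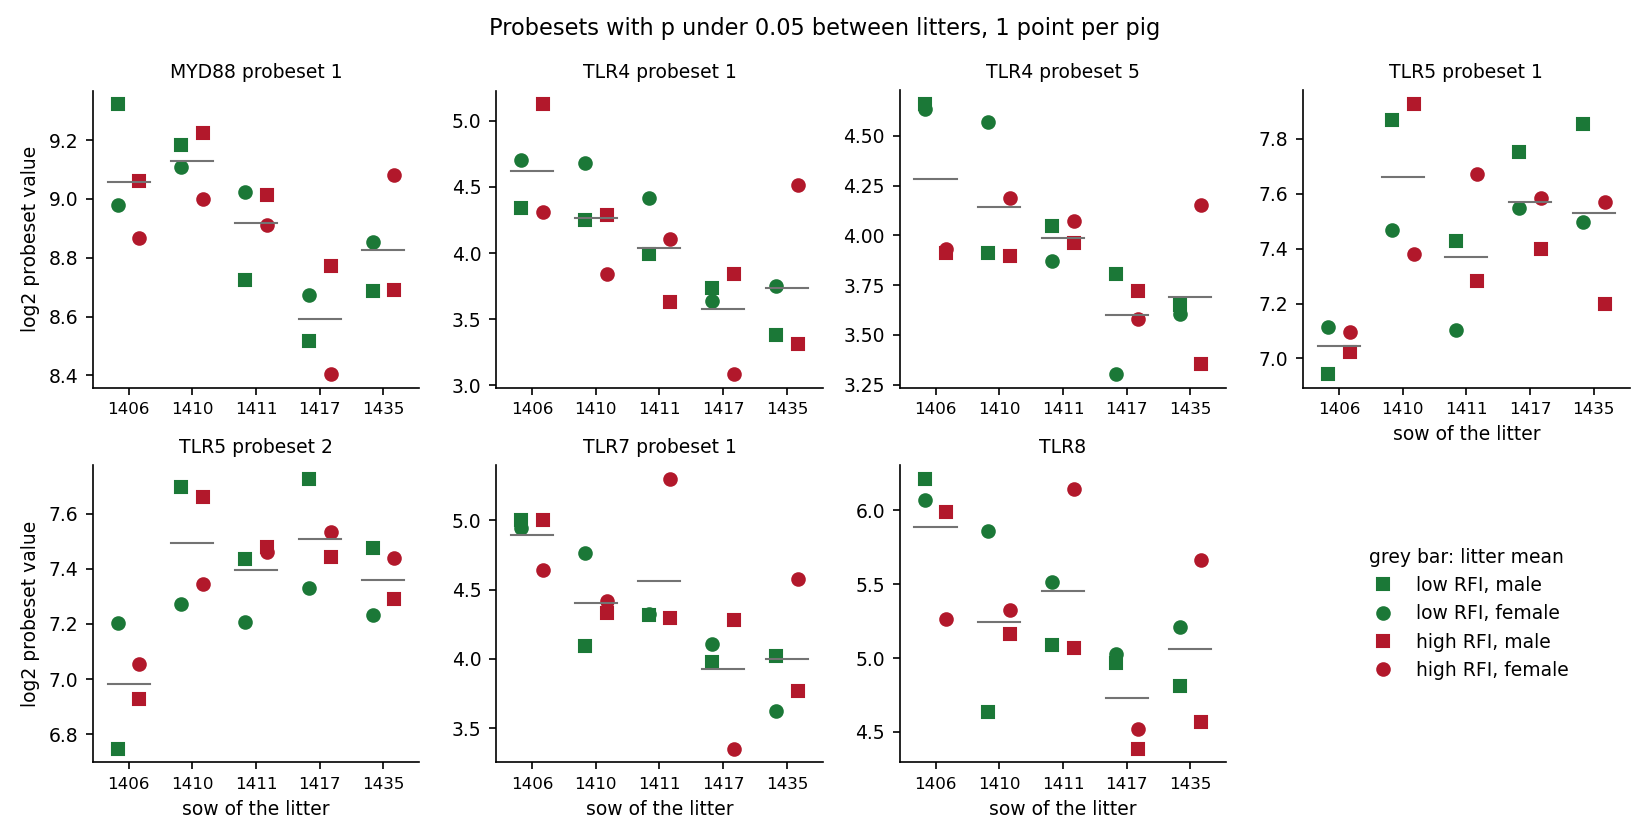
Log2 values (y axis) of the 7 member probesets with p under 0.05 between litters, by sow (x axis), with 1 point per pig, low RFI (green) left of high RFI (red), squares for males, circles for females and a grey bar at each litter mean. TLR8, TLR7 probeset 1 and TLR4 are highest in litter 1406 and lowest in 1417, and both TLR5 probesets are lowest in litter 1406.

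Markers of several other cell types moved between litters too, where the background was 12.9% of all probesets. Of the macrophage and monocyte markers, 3 of the 6 tested (CD163, AIF1 and C1QA) had p under 0.05 between litters, each lowest in litter 1417 and highest in litter 1406, with a mean level over the list of 5.44 and 5.86 in these litters. Of the dendritic cell markers, 3 of the 4 tested (CD83, CCR7 and IRF4) did the same, with 5.61 in litter 1417 and 6.42 in litter 1406. All 3 endothelial markers tested had p under 0.05 between litters, with their level again lowest in 1417 and highest in 1406 (5.67 and 6.41). The 5 enterocyte markers did not pass the test and averaged 11.33 in litter 1406 and 11.49 in 1417. Other lists did not follow this order throughout: 1 of 4 neutrophil markers passed and the list was lowest in litter 1410 (4.11) and highest in 1406 (4.49), and 2 of 6 T cell markers passed and the list was lowest in 1410 (8.98) and highest in 1417 (9.35). None of 4 B cell markers passed, and their list was also lowest in 1417 (6.08) but highest in 1411 (6.55). Of 3 fibroblast markers 2 passed and of 4 smooth muscle markers 1, both lists being lowest in 1417 and highest in 1406. The part of these cells in the litter differences of the receptors was not tested.

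TLR7 probeset 1 and TLR8 followed each other from pig to pig, with r = 0.84 and rho = 0.87 over 20 arrays, and r = 0.74 after the sow and RFI group were taken out. RefSeq places TLR7 (chromosome X, 9573178 to 9576987) within the annotated span of TLR8 (9551284 to 9616762), and which strand the probes read was not examined, so signal from one gene on the other's probeset cannot be set apart. TLR4 probeset 1 correlated with TLR7 probeset 1 at 0.77 and with TLR8 at 0.74, and at 0.60 and 0.54 after the sow and RFI group were taken out. TLR5 probeset 2 went against TLR8, with r = -0.59. All these correlations are over 20 pigs that share 5 litters, and are given as a description with no test.

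**Figure D5:**
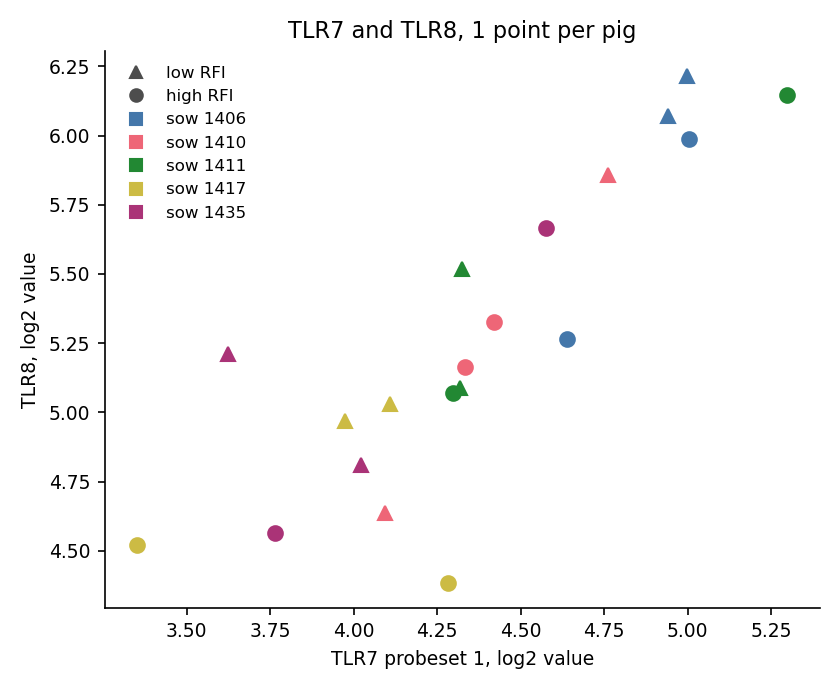
TLR8 log2 value (y axis) against TLR7 probeset 1 log2 value (x axis) for each of the 20 pigs, coloured by litter, with triangles for low RFI and circles for high RFI. The pigs lie along 1 rising band (r = 0.84), with litter 1406 towards its upper and litter 1417 towards its lower end.

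Between the sexes, 2 of 19 member probesets (10.5%) had p under 0.05, beside a background of 7.43% (4.24% higher and 3.19% lower in males). After adjustment no member passed, beside 0.00452% of all probesets. MYD88 probeset 2 was higher in males, with 7.11 ± 0.29 in males and 6.70 ± 0.55 in females (SD, n = 10 each), a difference of 0.41 with a standard error of 0.17 (limma p = 0.0232, adjusted p 0.637). The other MYD88 probeset had p = 0.740. TLR8, a gene on the X chromosome, was lower in males, with 5.09 ± 0.59 in males and 5.46 ± 0.50 in females, a difference of -0.37 with a standard error of 0.17 (limma p = 0.0440, adjusted p 0.661). Both calls were lost in limma without litter 1435, with p of 0.0554 for MYD88 probeset 2 and 0.177 for TLR8. Without litter 1406 or 1417 MYD88 probeset 2 had p of 0.121 and 0.0638, and without litter 1410 or 1411 TLR8 had p of 0.151 and 0.162. Without single pigs the p reached 0.0555 for MYD88 probeset 2 and 0.102 for TLR8. The RFI difference did not differ between sexes past the threshold for any of the 19 members, where the background was 6.06% and the lowest p was 0.131 (TLR5 probeset 1). For LY96 low minus high RFI was -0.60 in males and -0.49 in females, and the difference between these had p = 0.810 in limma.

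The other genes of the pathway are described between RFI groups by counts and a median, and a shift of the list as a whole was not tested. The list held 74 further receptors, chaperones, adaptors and kinases, transcription factors, inhibitors and induced cytokines, of which 49 had values and 45 were tested with 1 probeset each. None rose and 3 (TAB1, IL12B and CXCL2) were lower in low RFI pigs at p under 0.05, beside 1.44% higher and 2.59% lower over all probesets, the median log2 fold change was 0.01, and none passed after adjustment (limma adjusted p 0.9998 for each). TAB1, a partner of the kinase TAK1 downstream of the adaptors, averaged 5.81 ± 0.59 in low RFI and 6.32 ± 0.49 in high RFI pigs (SD, n = 10 each), a log2 fold change of -0.51 (limma p = 0.0122), and was higher in the low RFI pig in 1 of 10 pairs. Of the induced cytokines, IL12B, a subunit of interleukin-12 and interleukin-23, averaged 2.73 ± 0.24 in low RFI and 2.97 ± 0.16 in high RFI pigs (log2 fold change -0.23, limma p = 0.0339). CXCL2, a neutrophil chemokine, averaged 3.86 ± 0.19 in low RFI and 4.06 ± 0.13 in high RFI pigs (log2 fold change -0.21, limma p = 0.0263), and its other probeset went the opposite way.

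By role, none of the 5 other receptors and co-receptors, the 1 chaperone (CNPY3), the 2 transcription factors and the 11 inhibitors tested passed between RFI groups. Of 13 adaptors and kinases 1 passed, and of 13 cytokines and chemokines 2, beside the background of 4.03%; with so few genes a role, nothing is read from these counts. TLR6, which pairs with TLR2, averaged 4.71 ± 0.11 in low RFI and 4.70 ± 0.37 in high RFI pigs. Its log2 fold change was 0.01 (limma p = 0.960).

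Between litters, 9 of the 45 pathway genes had p under 0.05, and the background of all probesets was again 12.9%. They were the receptors TLR10 and CD180, the kinase partner TAB1, the inhibitors TOLLIP, NFKBIA and NFKBIE, and the cytokines TNF, IL10 and CCL2. Litter 1417 was lowest for 7 of the 9. The share of all probesets lowest in that litter was not computed, so nothing is read from this count. CCL2, a chemokine that draws monocytes, averaged 3.33 in litter 1417 and 4.79 in litter 1406, and was the only one to pass after adjustment (limma adjusted p = 0.0443). CD180, a receptor that resembles TLR4 and is known from B cells, averaged 3.12 in litter 1417 and 4.09 in litter 1406 (limma p = 0.0189).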

How the data were processed

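The members, the pathway and marker lists, the tests and the alternatives were chosen with earlier results of these data known. According to the methods, the authors assigned the probes of the snowball array to probesets with a custom layout built on Sscrofa11.1, examined array quality with arrayQualityMetrics and normalised the intensities with the robust multichip average method of affy. The deposited values are therefore on the log2 scale, and the submitters' processing notes name GCOS 1.1.1. The labels and the methods name different RNA and labelling kits. Of 47845 rows, 25092 held values on all 20 arrays and 22753 held none. Gene symbols came from the platform annotation, which can be old (16361 rows with 1 symbol, 8731 with none, 331 updated through RefSeq synonyms). The labels give feed efficiency, and the methods equate high efficiency with low RFI.

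Following the methods, probesets were left out whose mean fell below the 5% quantile (1.75) or whose SD exceeded the 95% quantile of either RFI group (0.825 in low RFI, 0.808 in high RFI), 2956 in all (1255 for the mean, 1701 for the SD alone). The remaining 22136 were fitted with lmFit and eBayes in limma 3.58.1 (R 4.3.3) with RFI group and sow as fixed terms (residual degrees of freedom 14, prior degrees of freedom 4.42). Log2 fold changes are low minus high RFI. Litter, sex, RFI by sex and RFI by litter were tested in the same way. Results were called at an unadjusted p under 0.05, which is the methods' threshold, and are given beside the Benjamini-Hochberg adjusted p over all probesets tested. The slaughter batch of the authors' model is not in the labels and was left out. The pairs come from the sow and sex labels, and the pair as a block is an alternative, as are other filters, scalings, fits and leaving out each pig or litter. All members were named whatever their p, pathway genes where they passed for RFI, or for litter after adjustment, and with LY96 the 5 genes of highest and the 3 of lowest correlation. TLR6, FABP6, the other markers named and the other pathway genes named for the litter were chosen after their values were seen. Each gene of a list was represented by its tested probeset of highest mean. Plots were drawn with matplotlib 3.10.9 in Python 3.11.15 (numpy 2.4.6, pandas 2.3.3). The scripts were tested on simulated data. Precision is limited by the number of arrays, since an array has no read depth.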

Additional observations from a re-analysis of the deposited data

Results flagged for a closer look

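A value was set apart where its gap to the nearest pig, divided by the range of its group, passed the 95% critical value of Dixon's test. Of 154 groups examined (RFI groups of 10 pigs and litters of 4), 8 held such a value, about as many as the 1 in 20 groups that chance flags. CD14 had 3 of them: the low RFI male of litter 1435 at 4.18, both among low RFI pigs (nearest 4.54) and in its litter (nearest 4.73), and the high RFI female of litter 1406 at 3.82 among high RFI pigs (nearest 4.42). The others lay within litters. LY96 was 2.16 in the high RFI male of litter 1406 (nearest 1.96), TLR3 probeset 4 was 8.88 in the low RFI male of litter 1406 (nearest 7.80), and TLR4 probeset 4 was 3.43 in the high RFI male of litter 1410 (nearest 4.57). TLR5 probeset 2 was 7.21 in the low RFI female of litter 1411 (nearest 7.43), and TLR7 probeset 1 was 5.30 in the high RFI female of litter 1411 (nearest 4.32). The LY96 values of the 2 high RFI pigs of litter 1411 were not set apart by this rule, since they lay near each other.

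The RFI difference of LY96 differed between litters in limma's interaction test (p = 4.34e-05, adjusted p 0.296). It ran from -2.16 in litter 1411 to 0.29 in litter 1435.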

How the results depend on the processing

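The LY96 difference kept its direction under every alternative, with limma p of 0.0444 with the litter-by-sex pair as a replicate block and 0.0229 to 0.0321 under the other models, filters and scalings. The pairing block changed no other call. After renewed quantile normalization LY96 was lower in the low RFI pig in 6 of 10 pairs, against 8 of 10 as deposited. Without a litter (for the tests other than RFI chosen after seeing the data), LY96 was -0.14 without 1411 and -0.55 without 1417, both no longer past the threshold, and without single pigs it was -0.64 to -0.40. The exact permutation test, p = 0.0605 with all pairs, gave -0.75 and p = 0.0078125 without litter 1435, the smallest p that 8 pairs allow, and 0.0801 to 0.242 under its other alternatives. Litter 1435 held the only 2 pairs with LY96 higher in the low RFI pig, so leaving it out fixed that smallest p. The count of 1 member called for RFI was 2 without litter 1406 (TLR2 added) and 0 without 1411 or 1417, and 0 to 2 without single pigs. Without the low RFI male of litter 1417, TLR3 probeset 2 was at 0.26 (p = 0.0462). The count for litter, 7, was 3 without litter 1406 and 7 to 10 without single pigs. The count for sex, 2, was 1 without the filter, 1 without 1411 or 1417, 0 without 1435, and 0 to 3 without single pigs. The count for RFI by sex, 0, was 1 without 1410, 1417 or 1435, and 0 to 2 without single pigs. The count for RFI by litter, 1, was 0 without 1411 and 2 without 1417, and 1 to 4 without single pigs. The cause was not tested in any of these.

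All reversals were of members near 0 that were not called. They were TLR3 probeset 3 with array weights (-0.014) and MYD88 probeset 1 with renewed quantile normalization (-0.012). Without litter 1406 they were MYD88 probeset 1 (-0.040), TLR4 probeset 5 (-0.019) and TLR3 probesets 1, 3 and 4 (-0.0017, -0.045 and -0.028). Without 1410 they were MYD88 probeset 1 (-0.0023) and TLR3 probeset 3 (-0.0049). Without 1411 they were TLR3 probeset 5 (0.090) and TLR7 probeset 1 (0.019), and without 1417 CD14 (-0.0050), TLR3 probeset 5 (0.066) and TLR7 probeset 2 (0.029). Without 1435 they were TLR3 probesets 1 to 4 (-0.088, -0.016, -0.15 and -0.035) and TLR5 probeset 1 (-0.017). Without single pigs the ranges were -0.048 to 0.11 for CD14, -0.032 to 0.042 for MYD88 probeset 1, -0.026 to 0.14 for TLR3 probeset 1, -0.054 to 0.14 for probeset 3, -0.045 to 0.16 for probeset 4, -0.085 to 0.097 for probeset 5, -0.065 to 0.00054 for TLR5 probeset 2, -0.17 to 0.019 for TLR7 probeset 1 and -0.12 to 0.063 for TLR7 probeset 2.

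The limits are the 10 pigs per group and 4 per litter, the slaughter batch and the detection of single probes, which the sources used here do not give, and the missing separation of litter and pen. No p of a member held after adjustment.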
